A study of Homo sapiens with 40 samples.

Results

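The keratins of simple (luminal) and of stratified (basal and stress) epithelia were followed in the HER2+ breast cancer line BT474 and in BT474R, its trastuzumab-resistant derivative. The members were the 10 rows of the deposited count table whose gene name was KRT7, KRT8, KRT18 or KRT19 (4 luminal keratins) or KRT5, KRT6A, KRT6B, KRT14, KRT16 or KRT17 (6 basal and stress keratins), out of 44584 rows, and all 10 were found. Both lines were starved of serum and then given 50 ng/mL EGF, 10 ng/mL HRG (heregulin) or water as the vehicle for 1, 12 or 24 h, and T0 cells were taken after starvation alone. Each of the 20 groups was sequenced as 2 libraries, 40 in all. BT474R is 1 clone that the study's methods describe as raised from BT474 in medium with trastuzumab for several weeks, so a difference between the lines is a difference between the parent line and that clone. All groups share the starvation medium with little serum, and no trastuzumab is named among the treatments of the sequenced cells.

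Keratins are the intermediate filament proteins of epithelial cells, and a filament is built from pairs of a type I keratin (KRT14, KRT16, KRT17, KRT18, KRT19) and a type II keratin (KRT5, KRT6A, KRT6B, KRT7, KRT8). KRT8 with KRT18, joined by KRT7 and KRT19, make up the filaments of glandular and luminal mammary cells. KRT5 with KRT14 mark basal and myoepithelial cells, and KRT6A, KRT6B, KRT16 and KRT17 are stress keratins that skin cells raise after wounding and in hyperproliferation. EGF is a ligand of EGFR and HRG of HER3 and HER4, and each of these receptors can pair with HER2.

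Because keratin genes arose by duplication, their coding sequences were compared first, as this bears on which counts can be assigned to 1 gene. Gene positions and sequences are those of GRCh38 with the GENCODE release 44 annotation, the primary chromosomes of which are those of the build named for the counts (GRCh38.p13). The type II members lie on chromosome 12, KRT6B at chr12:52446651-52452146, KRT6A at chr12:52487176-52493257, KRT5 at chr12:52514575-52520530 and KRT8 at chr12:52897187-52949954 on the minus strand, and KRT7 at chr12:52232520-52252186 on the plus strand. KRT18, a type I keratin, lies beside KRT8 at chr12:52948871-52952906 on the plus strand, where its record overlaps that of KRT8, and KRT7 overlaps KRT7-AS, KRT86 and KRT87P. The other type I members lie on the minus strand of chromosome 17, KRT19 at chr17:41523617-41528308, KRT14 at chr17:41582279-41586895, KRT16 at chr17:41609778-41615899 and KRT17 at chr17:41619442-41624842. The strand setting of the counting was not given in the sources used here, so reads of overlapping genes on opposite strands could not be told apart.

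The longest run of coding sequence that KRT6A, KRT6B and KRT6C share without a difference was 269 bases (chr12:52492773-52493041, minus strand, exon 1 of KRT6A), longer than a sequenced read, and the capitals mark a stretch of the length of 1 read at its start:
KRT6A, KRT6B and KRT6C: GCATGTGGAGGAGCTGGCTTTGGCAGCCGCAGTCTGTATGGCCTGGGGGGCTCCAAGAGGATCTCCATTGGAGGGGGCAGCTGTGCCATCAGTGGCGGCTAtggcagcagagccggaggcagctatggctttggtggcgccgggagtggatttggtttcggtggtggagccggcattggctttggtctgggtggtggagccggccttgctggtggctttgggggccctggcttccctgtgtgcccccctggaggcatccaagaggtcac
KRT16 and KRT14 shared a run of 158 bases (chr17:41612216-41612373, minus strand, exon 1 of KRT16), in which the capitals mark the 53 bases that KRT17 has too:
KRT16 and KRT14: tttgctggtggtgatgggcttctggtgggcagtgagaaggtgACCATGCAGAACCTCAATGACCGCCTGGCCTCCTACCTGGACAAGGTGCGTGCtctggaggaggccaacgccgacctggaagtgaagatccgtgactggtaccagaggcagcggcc
The same 53 bases show where the luminal type I keratins differ from the stress keratins, with capitals for bases that differ from KRT16:
KRT16 (chr17:41612279-41612331, minus strand, exon 1): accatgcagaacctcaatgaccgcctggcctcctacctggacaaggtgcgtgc
KRT19 (chr17:41527949-41528001, minus strand, exon 1): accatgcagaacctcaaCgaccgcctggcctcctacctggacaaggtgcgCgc
KRT18 (chr12:52949420-52949472, plus strand, exon 1): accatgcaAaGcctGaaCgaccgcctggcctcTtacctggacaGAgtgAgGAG
KRT19 differed at 2 of these bases and KRT18 at 11.

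Of all windows of the length of 1 read in the main transcript of a member, 24.1% in KRT6B and 17.9% in KRT6A were found in another gene as well. The share was 7.0% in KRT16 (KRT14 and 2 KRT16 pseudogenes), 6.77% in KRT8 (KRT8 pseudogenes), 5.92% in KRT14, 1.59% in KRT5 and 0.282% in KRT17, and no window was shared in KRT7, KRT18 or KRT19. Counts on pseudogene rows were small beside those of the members, 0.342% of the member's count for KRT8, 3.83% for KRT16 and 2.43% for KRT17. KRT6C, which is no member, held 171 counts over the 40 libraries against 56 for KRT6A, so the split of counts among the KRT6 genes is uncertain.

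Levels are given as CPM, the read count of a gene scaled to a common total of counted reads, with library sizes corrected by TMM over all 40 libraries. Between 19200632 and 29098915 reads per BT474 library and between 16794594 and 33387936 per BT474R library were counted on genes, and 3 counts, taken as the limit of detection, came to at most 0.156 CPM in BT474 and 0.179 CPM in BT474R. As bulk RNA was measured, fewer cells that express a keratin and less of its RNA per cell cannot be told apart. The luminal epithelial markers EPCAM, CDH1, ESR1, GATA3, FOXA1, ERBB2 and ELF3 each had a mean of at least 1 CPM in both lines. Of the 8 basal or myoepithelial markers, TP63, MYLK, OXTR and CDH3 reached a mean of 1 CPM in both lines, while CNN1 in both lines, KRT14 in BT474 and ACTA2 in BT474R stayed at the limit in every library, and the list summed to 40.8 to 63.9 CPM in BT474 and 73.8 to 99.1 CPM in BT474R. Of 5 leukocyte markers, 3 in BT474 and 4 in BT474R were at the limit in every library, PTPRC and CD3E in both lines, and the list summed to at most 1.49 and 0.799 CPM. Of 7 fibroblast markers 4 were at the limit in every library of a line (DCN, PDGFRB and FAP in both lines), while COL1A1 had a mean of at least 1 CPM in both, and the list summed to 75.2 to 105 CPM in BT474 and 169.5 to 295 CPM in BT474R. None of 4 endothelial markers was at the limit throughout, VWF and CDH5 had a mean of at least 1 CPM in both lines, and the list summed to 13.1 to 25.3 CPM in BT474 and 9.57 to 22.7 CPM in BT474R. Of 5 keratinocyte markers in the table, KRT10 and KRT2 had a mean of at least 1 CPM, and the list summed to 23.7 to 29.4 CPM in BT474 and 17.4 to 24.5 CPM in BT474R. The part of such cells or transcripts in the results was not tested. The methods state that treatments were run in duplicate but not how the cultures were kept apart, so p-values measure the spread between these libraries, which may be technical. In BT474R at 24 h the 2 replicates stood apart for the luminal keratins (KRT8 with HRG at 1112 and 1601 CPM and with vehicle at 980.2 and 1302 CPM), and results of that time are given with and without the libraries that decide them.

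At T0 every luminal keratin stood far above every basal and stress keratin in both lines, as the plot of levels at T0 shows per kilobase of transcript, the scale on which genes can be compared. KRT19 was the highest in BT474 at 1076 ± 19.8 CPM per kilobase (SD, n = 2 for all values of this kind), followed by KRT8 at 990.2 ± 30.8, KRT18 at 492 ± 3.26 and KRT7 at 454 ± 11.9 CPM per kilobase. In BT474R KRT19 was again the highest at 1316 ± 32.6 CPM per kilobase, and KRT7 at 796 ± 31.2 stood above KRT8 at 688 ± 12.5 and KRT18 at 378 ± 16.3 CPM per kilobase. In each line neighbours in this order were further apart than their SDs. KRT16 led the basal and stress keratins with 0.898 ± 0.148 CPM per kilobase in BT474 and 0.616 ± 0.153 in BT474R. KRT17 followed with 0.279 ± 0.0747 CPM per kilobase in BT474 and 0.13 ± 0.0962 in BT474R, and KRT5 stood at 0.0719 ± 0.0528 and 0.194 ± 0.0671, so KRT17 and KRT5 in BT474R lay within their spread. KRT6A, KRT6B and KRT14 had 0 to 3 counts in each T0 library and were at the limit of detection in both lines.

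**Figure D1:**
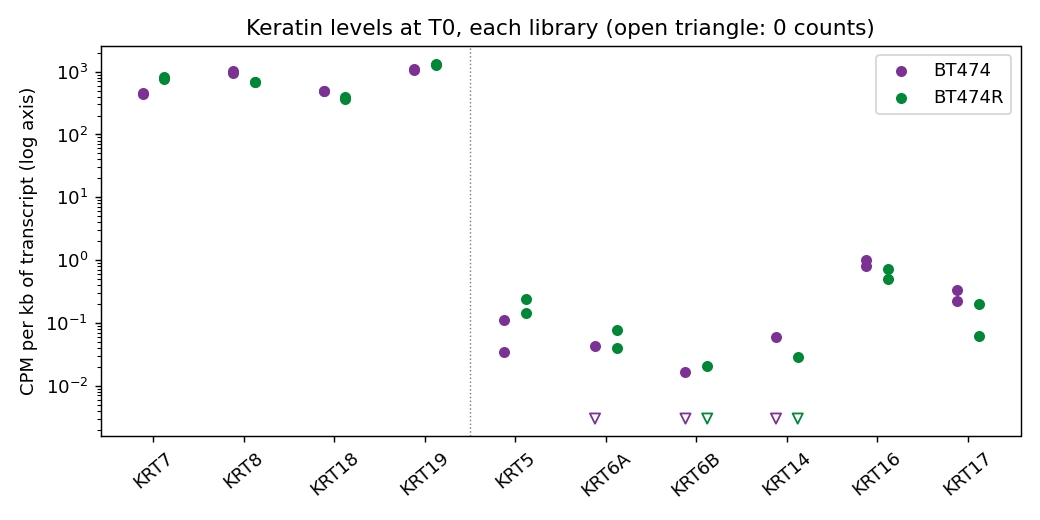
Levels of the 10 keratins at T0 in CPM per kilobase of transcript (log axis), 1 point per library, with libraries without a count drawn as open triangles at the bottom. The 4 luminal keratins left of the dotted line lie between 378 and 1316 CPM per kilobase on average, and KRT16, the highest of the others, has a mean of 0.898 in BT474.

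The counts behind these levels set how firmly each member can be described. KRT8 had 20708 to 75848 counts per library, KRT19 29194 to 67539, KRT7 12776 to 45932 and KRT18 9181 to 33546. KRT16 had 12 to 443 counts and KRT17 2 to 194. KRT5 exceeded 3 counts in 29 of the 40 libraries, KRT6B in 16, KRT14 in 3 and KRT6A in 2. All 10 members passed the filter on low counts in each fit, the sparse ones because 1 count in 50% of the libraries was enough.

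The question of the next comparisons was how each ligand moved the keratins against vehicle of the same line and time. In BT474, EGF and HRG raised all 4 luminal keratins at 12 h and at 24 h, most with HRG at 12 h, and at the same time raised the stress keratins KRT16 and KRT17 by far larger factors. In BT474R, EGF raised the 4 luminal keratins, KRT5, KRT16 and KRT17 at 12 h and KRT8, KRT18, KRT16 and KRT17 at 24 h. HRG raised KRT18, KRT16 and KRT17 there at 12 h and KRT16 at 24 h. Several of these calls were lost without single libraries, as given below for each gene. Set against each other at 12 h in BT474R, the ligands differed by the test for KRT16 alone. No member was called lower with either ligand. The EGF and HRG comparisons of a line and time share the vehicle libraries.

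At 1 h in BT474, 1 luminal and 1 stress keratin passed the test with EGF and 2 luminal and 1 stress keratin with HRG, beside 2.19% and 2.77% of all genes tested (adjusted p below 0.05, edgeR, either direction). At 12 h all 4 luminal keratins passed with each ligand, with 2 of 6 basal and stress keratins with EGF and 3 of 6 with HRG, beside 16% and 25.8% of all genes. At 24 h it was again 4 of 4 and, with each ligand, 3 of 6, beside 16.4% (EGF) and 24.1% (HRG). In BT474R no member passed at 1 h with either ligand, beside 0.457% (EGF) and 0.169% (HRG) of all genes. DESeq2 called 0 members there as well, and an unadjusted p below 0.05 was seen for 1 member with EGF and 0 with HRG. At 12 h, EGF moved 4 luminal and 3 basal and stress keratins and HRG 1 and 2, beside 12% and 4.12%, and at 24 h EGF moved 2 and 2 and HRG 0 and 1, beside 17.3% and 2.78%. The median log2 fold change at 12 h in BT474 was 0.47 over the luminal keratins with EGF and 0.76 with HRG, against -0.03 and -0.02 over all genes. In BT474R at 12 h it was 0.43 with EGF and 0.28 with HRG, against -0.01 and -0.02 over all genes. No median is given for the basal and stress keratins, as some of them were at the limit of detection.

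**Figure D2:**
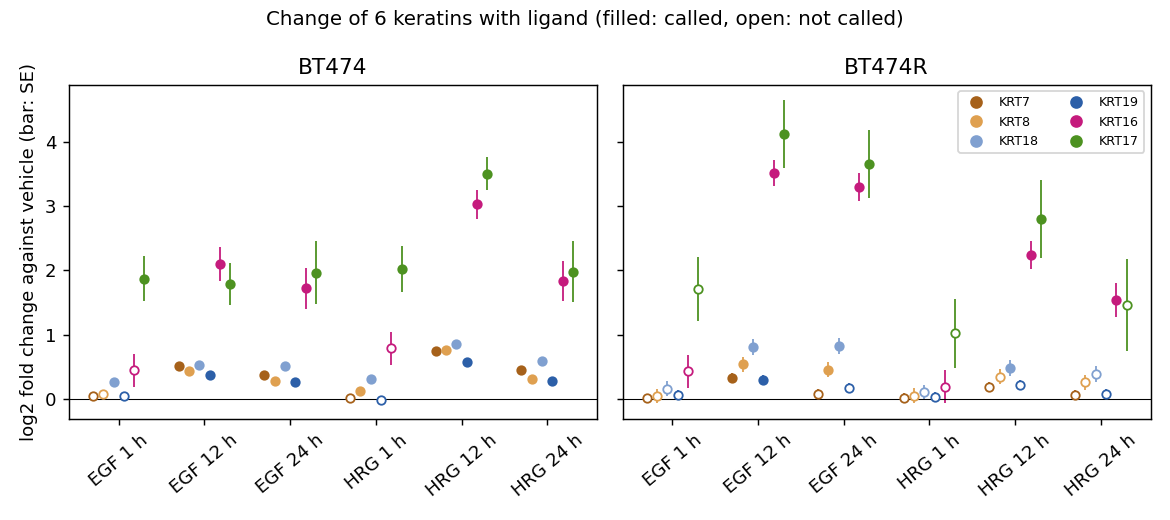
Log2 fold change against vehicle of the same line and time (bars are SE) for the 6 keratins with enough counts, by ligand and time, filled where edgeR's adjusted p was below 0.05. KRT16 and KRT17 lie above the luminal keratins at 12 h and 24 h in both lines, highest with HRG at 12 h in BT474 and with EGF at 12 h in BT474R.

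KRT8, the most abundant luminal type II keratin of BT474, rose by 1.74-fold with HRG at 12 h. Its 2 BT474 libraries stood at 1805 and 1728 CPM at T0 and, with vehicle, at 1747 and 1753 CPM at 1 h, 1488 and 1519 CPM at 12 h and 1284 and 1302 CPM at 24 h. With EGF the libraries stood at 1889 and 1877 CPM at 1 h, 2039.9 and 2064 CPM at 12 h and 1542 and 1608 CPM at 24 h. With HRG they stood at 1914 and 1904 CPM at 1 h, 2590.3 and 2634 CPM at 12 h and 1607 and 1660.4 CPM at 24 h. Both ligand libraries lay above both vehicle libraries at each time. On the log2 scale, HRG raised KRT8 by 0.77 ± 0.03 (SE) at 12 h (edgeR adjusted p = 1.2e-21) and by 0.31 ± 0.03 (SE) at 24 h (edgeR adjusted p = 1.1e-10). EGF raised it by 0.43 ± 0.03 (SE) at 12 h (edgeR adjusted p = 8.8e-14) and by 0.28 ± 0.03 (SE) at 24 h (edgeR adjusted p = 4.75e-09). The small rise with HRG at 1 h, 0.12 ± 0.03 (SE) (edgeR adjusted p = 0.0199), lost its call without any 1 of the 4 libraries compared (0.12 to 0.14).

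In BT474R, KRT8 began lower, at 1243 and 1211 CPM at T0. Vehicle libraries stood at 1289 and 1322 CPM at 1 h, 1227 and 1337 CPM at 12 h and 980.2 and 1302 CPM at 24 h. EGF libraries stood at 1396 and 1297 CPM at 1 h, 1893 and 1844 CPM at 12 h and 1505 and 1623 CPM at 24 h. HRG libraries stood at 1289 and 1399.7 CPM at 1 h, 1596 and 1699 CPM at 12 h and 1112 and 1601 CPM at 24 h. The EGF libraries lay above the vehicle libraries at 12 h and 24 h, and the HRG libraries at 12 h. EGF raised KRT8 by 0.54 ± 0.12 (SE) at 12 h (edgeR adjusted p = 0.00292) and by 0.45 ± 0.12 (SE) at 24 h (edgeR adjusted p = 0.00882). The call at 24 h was lost without vehicle replicate 1 (0.26) or EGF replicate 2 (0.41), and the value was 0.68 without vehicle replicate 2. With HRG the log2 fold change was 0.35 ± 0.12 (SE) at 12 h (edgeR adjusted p = 0.11) and 0.26 ± 0.12 (SE) at 24 h (edgeR adjusted p = 0.296). The latter passed the test without vehicle replicate 2 (0.49) or HRG replicate 1 (0.48).

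KRT18, the type I partner of KRT8, was the luminal keratin with the largest log2 fold change in each of the 12 comparisons of ligand with vehicle, and the only one called with both ligands at 1 h in BT474 in the fit of that line. BT474 libraries stood at 692 and 699 CPM at T0 and, with vehicle, at 725 and 722 CPM at 1 h, 635 and 633 CPM at 12 h and 547 and 559.8 CPM at 24 h. With EGF they stood at 886 and 878 CPM at 1 h, 921 and 936 CPM at 12 h and 768 and 819.7 CPM at 24 h. With HRG they stood at 897 and 904 CPM at 1 h, 1178 and 1165 CPM at 12 h and 806 and 879 CPM at 24 h. At every time the ligand libraries lay above the vehicle libraries. At 1 h the rise was 0.26 ± 0.04 (SE) with EGF (edgeR adjusted p = 1.58e-06) and 0.31 ± 0.04 (SE) with HRG (edgeR adjusted p = 5.17e-08) on the log2 scale, and neither was called in 1 fit of both lines. At 12 h it was 0.53 ± 0.04 (SE) with EGF (edgeR adjusted p = 3.63e-14) and 0.85 ± 0.04 (SE) with HRG (edgeR adjusted p = 1.08e-20). At 24 h it was 0.51 ± 0.04 (SE) with EGF and 0.58 ± 0.04 (SE) with HRG, with edgeR adjusted p of 6.55e-14 and 1.11e-15.

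The BT474R libraries held 551 and 518 CPM of KRT18 at T0 and, with vehicle, 553 and 569 CPM at 1 h, 499 and 539 CPM at 12 h and 372 and 469 CPM at 24 h. EGF libraries held 645 and 609 CPM at 1 h, 936 and 885 CPM at 12 h and 712 and 772 CPM at 24 h. HRG libraries held 592 and 606 CPM at 1 h, 705 and 764 CPM at 12 h and 429 and 658 CPM at 24 h. Ligand and vehicle libraries overlapped only for HRG at 24 h. EGF raised KRT18 by 0.81 ± 0.12 (SE) at 12 h (edgeR adjusted p = 6.9e-05) and by 0.82 ± 0.12 (SE) at 24 h (edgeR adjusted p = 4.33e-05). HRG raised it by 0.48 ± 0.12 (SE) at 12 h (edgeR adjusted p = 0.0232), a call that was lost without any 1 of the 4 libraries compared (0.45 to 0.57). At 24 h with HRG it was 0.38 ± 0.12 (SE) (edgeR adjusted p = 0.102), and passed the test without vehicle replicate 2 (0.57) or HRG replicate 1 (0.64).

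KRT7, a type II keratin of ducts and glands, stood higher in BT474R than in BT474 in each treatment at each time. BT474 libraries held 751 and 724 CPM at T0 and, with vehicle, 763 and 786 CPM at 1 h, 761 and 777 CPM at 12 h and 601 and 633 CPM at 24 h. EGF libraries held 825 and 800.0 CPM at 1 h, 1119 and 1103 CPM at 12 h and 805 and 804 CPM at 24 h. HRG libraries held 787 and 789 CPM at 1 h, 1322 and 1315 CPM at 12 h and 817 and 901 CPM at 24 h. Ligand and vehicle libraries did not overlap at any time, though at 1 h the change was 0.05 ± 0.03 (SE) with EGF and 0.02 ± 0.03 (SE) with HRG and was not called. The rise at 12 h was 0.52 ± 0.03 (SE) with EGF (edgeR adjusted p = 4.46e-14) and 0.75 ± 0.03 (SE) with HRG (edgeR adjusted p = 2.23e-19). At 24 h it was 0.38 ± 0.03 (SE) and 0.45 ± 0.03 (SE), with edgeR adjusted p of 1.29e-10 and 4.96e-13.

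In BT474R, KRT7 stood at 1329 and 1257 CPM at T0 and, with vehicle, at 1376 and 1413 CPM at 1 h, 1403 and 1495 CPM at 12 h and 1015 and 1162 CPM at 24 h. EGF libraries stood at 1428 and 1379.7 CPM at 1 h, 1803 and 1826 CPM at 12 h and 1111 and 1187 CPM at 24 h. HRG libraries stood at 1359 and 1463 CPM at 1 h, 1653 and 1684 CPM at 12 h and 1012 and 1242 CPM at 24 h. Ligand libraries lay above vehicle libraries at 12 h and overlapped them at 1 h and 24 h. Only EGF at 12 h passed the test, at 0.32 ± 0.07 (SE) (edgeR adjusted p = 0.00421), and not without vehicle replicate 1 (0.29). The log2 fold change was 0.19 ± 0.07 (SE) with HRG at 12 h and 0.07 ± 0.07 (SE) (EGF) and 0.06 ± 0.07 (SE) (HRG) at 24 h.

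KRT19, the type I keratin that lacks most of the tail domain of its relatives, was the luminal keratin with the smallest rise at 12 h in BT474. Its BT474 libraries held 1515 and 1476 CPM at T0 and, with vehicle, 1419.9 and 1430.2 CPM at 1 h, 1521 and 1519 CPM at 12 h and 1373 and 1380.1 CPM at 24 h. EGF libraries held 1524 and 1457 CPM at 1 h, 1982 and 1984 CPM at 12 h and 1659 and 1670.5 CPM at 24 h. HRG libraries held 1408 and 1424 CPM at 1 h, 2332 and 2274 CPM at 12 h and 1627 and 1760.5 CPM at 24 h. Except for HRG at 1 h, ligand libraries lay above vehicle libraries. KRT19 rose by 0.37 ± 0.03 (SE) with EGF (edgeR adjusted p = 7.21e-12) and 0.57 ± 0.03 (SE) with HRG (edgeR adjusted p = 1.1e-17) at 12 h, and by 0.27 ± 0.03 (SE) and 0.28 ± 0.03 (SE) at 24 h. In BT474R, libraries held 1862 and 1797 CPM at T0 and, with vehicle, 1811 and 1843 CPM at 1 h, 1998 and 2159 CPM at 12 h and 1698 and 1966 CPM at 24 h. EGF libraries held 1959 and 1860.4 CPM at 1 h, 2547 and 2577 CPM at 12 h and 2022 and 2119 CPM at 24 h. HRG libraries held 1769.8 and 1936 CPM at 1 h, 2388 and 2496 CPM at 12 h and 1691 and 2122 CPM at 24 h. EGF libraries lay above vehicle at each time and HRG libraries at 12 h alone. The rise with EGF at 12 h, 0.30 ± 0.08 (SE) (edgeR adjusted p = 0.0123), lost its call without vehicle replicate 1 (0.26) or either EGF library (0.30 in both cases). At 24 h with EGF the log2 fold change was 0.17 ± 0.08 (SE) (edgeR adjusted p = 0.139), and passed the test without vehicle replicate 2 (0.29) and in 1 fit of both lines (0.18). With HRG at 24 h it was 0.07 ± 0.08 (SE) (edgeR adjusted p = 0.754), and passed without HRG replicate 1 (0.20).

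**Figure D3:**
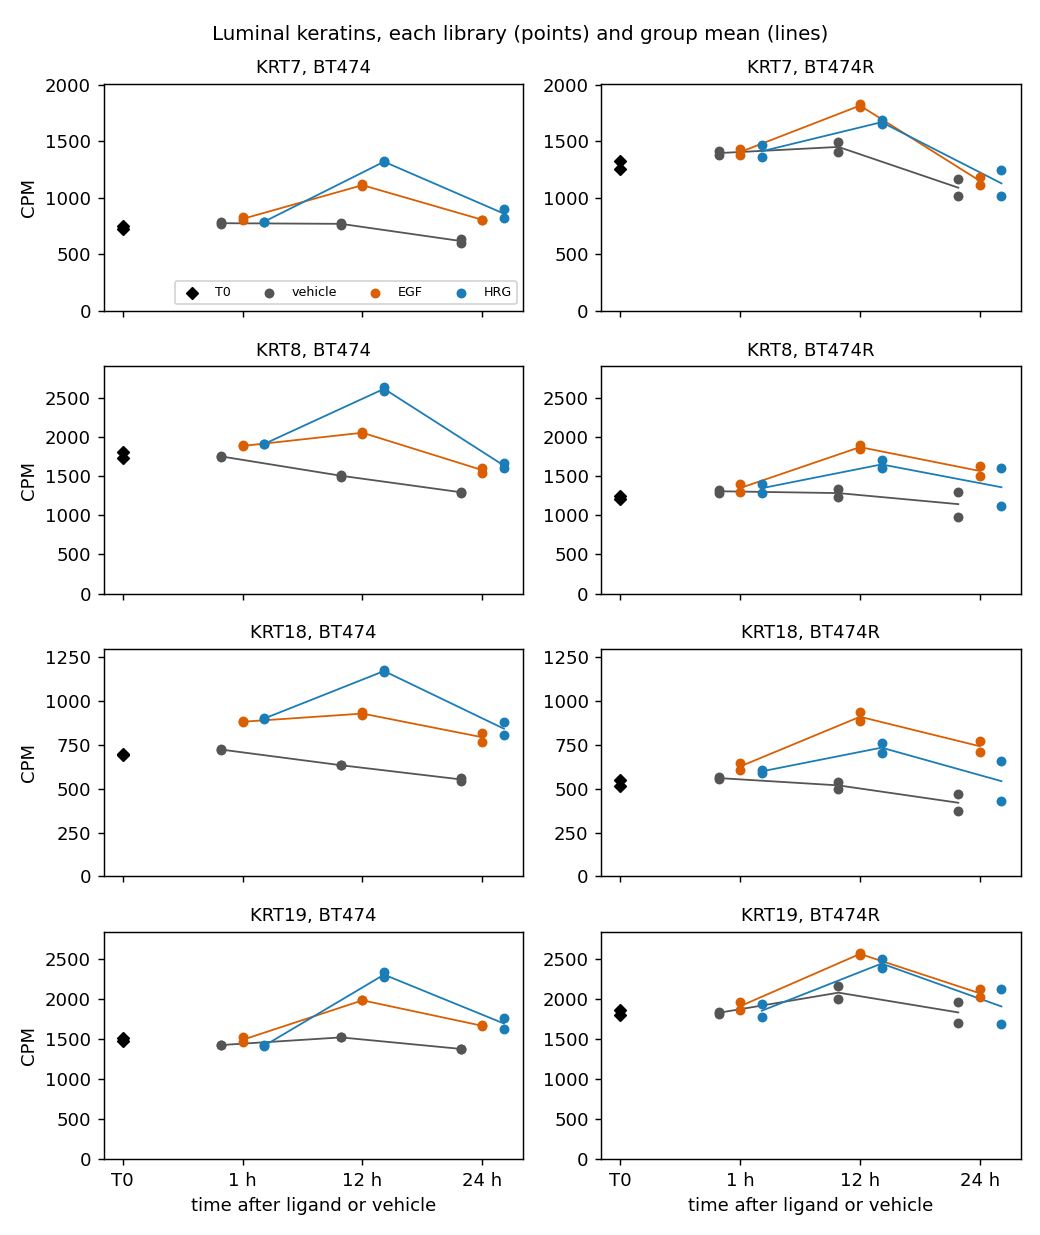
CPM of the 4 luminal keratins in every library (points) and group mean (lines) against time, by treatment, with BT474 on the left and BT474R on the right and the axis from 0. All 4 reach their highest group mean at 12 h, with HRG in BT474 (KRT8 2612 CPM) and with EGF in BT474R (KRT8 1868 CPM).

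KRT16, a stress keratin of skin appendages and wounded epidermis, made up 39.5% to 75% of the basal and stress keratin counts of a BT474 library and 49.1% to 77.2% of a BT474R library. In BT474 it stood at 1.31 and 1.66 CPM at T0 and, with vehicle, at 1.24 and 1.56 CPM at 1 h, 0.793 and 0.719 CPM at 12 h and 0.565 and 0.569 CPM at 24 h. EGF libraries stood at 1.8 and 2.08 CPM at 1 h, 2.95 and 3.65 CPM at 12 h and 1.57 and 2.26 CPM at 24 h. HRG libraries stood at 3.03 and 1.82 CPM at 1 h, 5.91 and 6.7 CPM at 12 h and 2.19 and 1.93 CPM at 24 h. The ligand libraries lay above the vehicle libraries at each time, and the highest BT474 libraries were those with HRG at 12 h. There KRT16 rose by 3.02 ± 0.23 (SE) on the log2 scale (edgeR adjusted p = 2.32e-13), against 2.09 ± 0.26 (SE) with EGF (edgeR adjusted p = 1.12e-07). At 24 h the rise was 1.72 ± 0.32 (SE) with EGF (edgeR adjusted p = 9.17e-05) and 1.83 ± 0.31 (SE) with HRG (edgeR adjusted p = 1.14e-05). At 1 h it was 0.45 ± 0.25 (SE) and 0.79 ± 0.25 (SE) and was not called, though with HRG it passed the test without HRG replicate 2 (1.12).

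The largest KRT16 level of the series was in BT474R with EGF at 12 h. BT474R libraries stood at 1.2 and 0.842 CPM at T0 and, with vehicle, at 1.27 and 1.8 CPM at 1 h, 1.24 and 1.64 CPM at 12 h and 1.04 and 1.36 CPM at 24 h. EGF libraries stood at 2.06 and 2.16 CPM at 1 h, 17.4 and 16 CPM at 12 h and 10.3 and 13.1 CPM at 24 h. HRG libraries stood at 1.91 and 1.63 CPM at 1 h, 6.58 and 7.39 CPM at 12 h and 2.61 and 4.27 CPM at 24 h. The ligand libraries overlapped those with vehicle only for HRG at 1 h. EGF raised KRT16 by 3.51 ± 0.20 (SE) at 12 h (edgeR adjusted p = 1.13e-10), a ratio of 11.4 with a 95% counting interval of 9.04 to 14.7. At 24 h EGF raised it by 3.29 ± 0.22 (SE) (edgeR adjusted p = 5.07e-10). HRG raised it by 2.24 ± 0.22 (SE) at 12 h (edgeR adjusted p = 1.19e-06) and by 1.54 ± 0.26 (SE) at 24 h (edgeR adjusted p = 0.00218). The last call was lost without vehicle replicate 1 (1.33) and with only the libraries of the 2 groups compared.

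KRT17, a stress keratin that is also made in basal cells, was the only basal or stress keratin called at 1 h, in BT474 with each ligand. In BT474 it stood at 0.503 and 0.342 CPM at T0 and, with vehicle, at 0.549 and 0.42 CPM at 1 h, 0.69 and 0.479 CPM at 12 h and 0.0941 and 0.342 CPM at 24 h. EGF libraries stood at 1.73 and 1.87 CPM at 1 h, 1.98 and 2.16 CPM at 12 h and 0.932 and 0.905 CPM at 24 h. HRG libraries stood at 1.94 and 2.01 CPM at 1 h, 8.37 and 5.56 CPM at 12 h and 1.21 and 0.615 CPM at 24 h. No ligand library overlapped a vehicle library. At 1 h the rise was 1.87 ± 0.35 (SE) with EGF (edgeR adjusted p = 0.000564) and 2.01 ± 0.36 (SE) with HRG (edgeR adjusted p = 0.000189). At 12 h it was 1.78 ± 0.32 (SE) with EGF (edgeR adjusted p = 8.5e-05) and 3.5 ± 0.26 (SE) with HRG (edgeR adjusted p = 1.05e-13), the latter a ratio of 11.5 with a counting interval of 8.0 to 17.1. At 24 h it was 1.96 ± 0.48 (SE) with EGF and 1.98 ± 0.47 (SE) with HRG, with edgeR adjusted p of 0.00298 and 0.00141. The 24 h values rested on vehicle libraries with 2 and 9 counts and were 3.21 (EGF) and 3.23 (HRG) without vehicle replicate 2, while the call was lost without vehicle replicate 1 for EGF (1.40) and without HRG replicate 1 for HRG (1.36).

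BT474R libraries held 0.30 and 0.0936 CPM of KRT17 at T0 and, with vehicle, 0.254 and 0.372 CPM at 1 h, 0.177 and 0.102 CPM at 12 h and 0.192 and 0.141 CPM at 24 h. EGF libraries held 0.855 and 1.26 CPM at 1 h, 2.47 and 2.38 CPM at 12 h and 2.14 and 2.24 CPM at 24 h. HRG libraries held 1.04 and 0.227 CPM at 1 h, 0.893 and 1.07 CPM at 12 h and 0.279 and 0.657 CPM at 24 h. The vehicle libraries of 12 h and 24 h had 3 to 5 counts each. Against them KRT17 rose by 4.12 ± 0.53 (SE) with EGF at 12 h (edgeR adjusted p = 8.62e-06), a ratio of 18 with a counting interval of 8.47 to 45.9. At 24 h the rise with EGF was 3.65 ± 0.52 (SE) (edgeR adjusted p = 2.65e-05). HRG raised KRT17 by 2.80 ± 0.61 (SE) at 12 h (edgeR adjusted p = 0.00802), a call lost without vehicle replicate 2 (2.45) or HRG replicate 2 (2.69) and in DESeq2's Wald test. At 24 h with HRG the value was 1.45 ± 0.71 (SE) (edgeR adjusted p = 0.362), and at 1 h it was 1.71 ± 0.50 (SE) with EGF (edgeR adjusted p = 0.276) and 1.02 ± 0.53 (SE) with HRG.

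KRT5, the type II keratin of basal cells, was found at low levels that were higher in BT474R than in BT474 in each treatment at each time. BT474 libraries had 2 and 5 counts at T0, and at 12 h they had 2 and 3 counts with vehicle, 7 and 3 with EGF and 10 and 15 with HRG. HRG at 12 h, 0.432 and 0.521 CPM, was called against vehicle (edgeR adjusted p = 0.0241), with a ratio of 5.2 and a counting interval of 1.95 to 17.4. That vehicle group was at the limit of detection. The call was lost in DESeq2's Wald test and without either vehicle library or HRG replicate 2 (log2 fold change 1.92 to 2.69 without each library). In BT474R, KRT5 stood at 0.54 and 0.328 CPM at T0 and, with vehicle, at 0.423 and 0.712 CPM at 1 h, 0.576 and 1.13 CPM at 12 h and 0.231 and 0.988 CPM at 24 h. EGF libraries stood at 0.738 and 0.816 CPM at 1 h, 2.55 and 2.29 CPM at 12 h and 0.654 and 1.46 CPM at 24 h. HRG libraries stood at 0.773 and 1.06 CPM at 1 h, 1.12 and 1.07 CPM at 12 h and 0.326 and 1.08 CPM at 24 h. Only EGF at 12 h was called, where KRT5 rose by 1.46 ± 0.42 (SE) (edgeR adjusted p = 0.0245). This call too was lost in DESeq2's Wald test and without vehicle replicate 1 (1.11) or either EGF library (1.37 and 1.54), and the value was 2.09 without vehicle replicate 2. With EGF at 24 h it was 0.88 ± 0.53 (SE) (edgeR adjusted p = 0.30), and passed the test without vehicle replicate 2 (2.20).

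**Figure D4:**
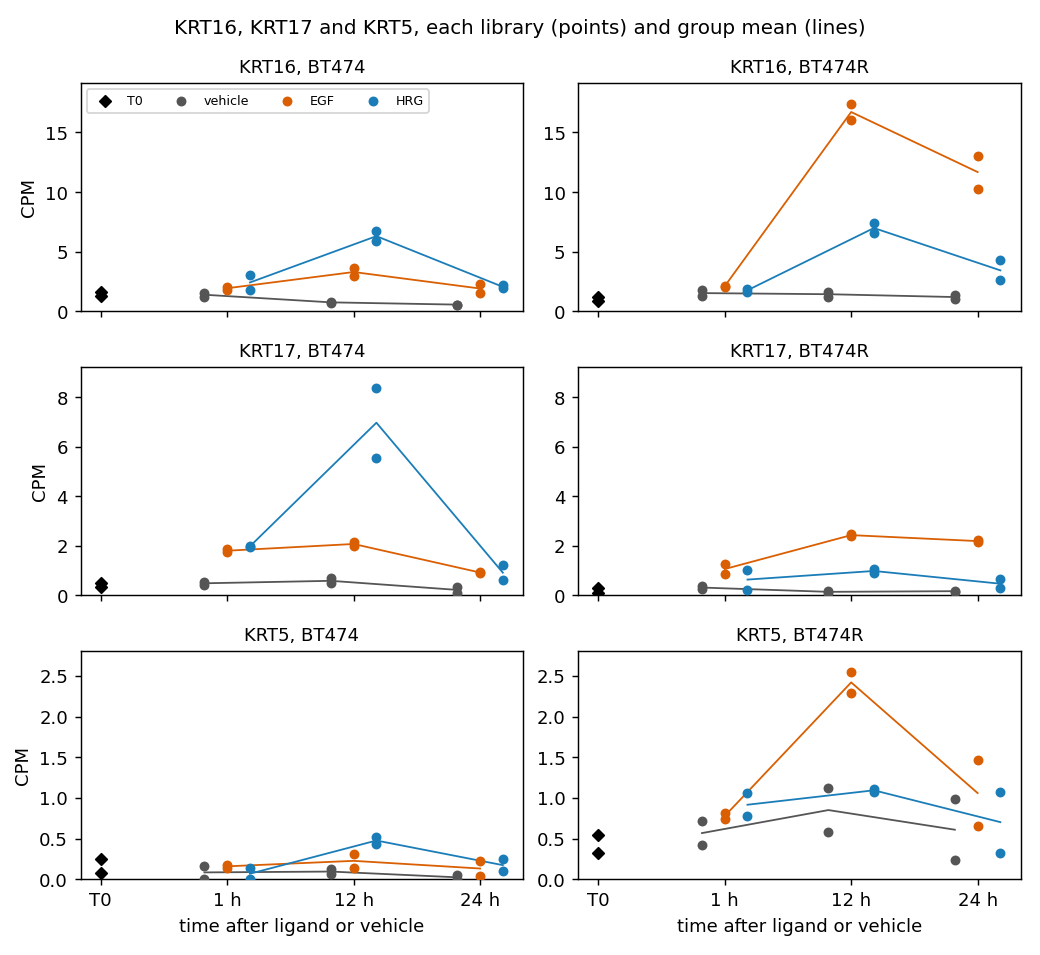
CPM of KRT16, KRT17 and KRT5 in every library (points) and group mean (lines) against time, by treatment, with BT474 on the left and BT474R on the right, on 1 scale per gene from 0. KRT16 is highest with EGF at 12 h in BT474R (group mean 16.7 CPM) and KRT17 with HRG at 12 h in BT474 (6.96 CPM).

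KRT14, the type I partner of KRT5, and KRT6A and KRT6B, the type II stress keratins, were at or near the limit of detection. KRT14 had at most 2 counts in a BT474 library, and in BT474R its highest libraries were those with EGF at 12 h (7 and 6 counts), against 0 and 3 with vehicle, a difference that was not called (edgeR adjusted p = 0.175). KRT6A exceeded 3 counts only with EGF at 24 h in BT474 (4 and 6 counts), where both vehicle libraries had no count, so that it was at least 3.24-fold higher against a floor of 3 counts over the vehicle group. That difference was called (edgeR adjusted p = 0.0214), but not by DESeq2 and not without either vehicle library or EGF replicate 2 (fitted log2 fold change 4.92 to 5.77 without each library). KRT6B reached its highest BT474 counts with HRG at 24 h (7 and 11, against 1 and 1 with vehicle, a group at the limit of detection), a ratio of 7.92 with a counting interval of 1.9 to 70.4 (edgeR adjusted p = 0.0244). DESeq2 did not call it, and the call was lost without either vehicle library or HRG replicate 2 (2.34 to 3.24 without each library). In BT474R, KRT6A had at most 3 counts and KRT6B at most 11 in a library, and neither was called with a ligand. The stretch of sequence shared by KRT6A, KRT6B and KRT6C bears on these counts, since a read inside it does not by itself tell the genes apart. The reads are paired, and the other read of a pair was not considered here.

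Starvation medium with vehicle alone was compared over 24 h with T0. In BT474 all 4 luminal keratins fell, and KRT16 with them, 5 of 10 members beside 11.4% of all genes. In BT474R 1 of 10 members, KRT7, was called, beside 13.7%, a share near that of all genes. Whether the lines differed in this change was not tested. KRT8 fell most among the luminal keratins of BT474, from 1805 and 1728 to 1284 and 1302 CPM, a log2 fold change of -0.45 ± 0.03 (SE) (edgeR adjusted p = 4.14e-14). KRT18 changed by -0.33 ± 0.04 (SE) (edgeR adjusted p = 9.2e-09), KRT7 by -0.26 ± 0.04 (SE) (edgeR adjusted p = 9.29e-07) and KRT19 by -0.12 ± 0.03 (SE) (edgeR adjusted p = 0.00641). The call for KRT19 was lost without T0 replicate 1 (-0.09) or either vehicle library (-0.10 and -0.11), and in 1 fit of both lines. KRT16 changed by -1.37 ± 0.34 (SE) (edgeR adjusted p = 0.00441), a call lost without T0 replicate 2 (-1.19) or vehicle replicate 2 (-1.36). In BT474R, KRT7 changed by -0.24 ± 0.07 (SE) (edgeR adjusted p = 0.0332), and the call was lost without T0 replicate 1 (-0.20), T0 replicate 2 (-0.27) or vehicle replicate 1 (-0.14). KRT18 there had -0.34 ± 0.12 (SE) (edgeR adjusted p = 0.073), which passed the test without vehicle replicate 2 (-0.53). The luminal keratins and KRT16 of BT474 with ligand at 24 h are thus set against a vehicle level below that of T0. HRG libraries of BT474 at 24 h held 1607 and 1660.4 CPM of KRT8 against 1805 and 1728 at T0. For KRT16, with 1.31 and 1.66 CPM at T0, they held 2.19 and 1.93 CPM, and the EGF libraries 1.57 and 2.26 CPM.

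The ligands were then compared with each other at the same time. In BT474, HRG gave more of all 4 luminal keratins, KRT16 and KRT17 than EGF at 12 h, whereas in BT474R HRG gave less KRT16 at 12 h and less KRT16, KRT17 and KRT18 at 24 h. At 12 h in BT474, 6 of 10 members were called, all higher with HRG, beside 2.17% of all genes. There KRT8 was higher by 0.33 ± 0.03 (SE) (edgeR adjusted p = 1.3e-09), KRT18 by 0.32 ± 0.04 (SE), KRT7 by 0.23 ± 0.03 (SE) and KRT19 by 0.20 ± 0.03 (SE) (edgeR adjusted p of at most 4.05e-05). The calls for KRT18 and KRT19 were lost in 1 fit of both lines. KRT17 was higher by 1.72 ± 0.21 (SE) (edgeR adjusted p = 1.14e-06) and KRT16 by 0.93 ± 0.18 (SE) (edgeR adjusted p = 0.00161). Neither of these 2 was called by DESeq2, and KRT16 was not called without HRG replicate 2 (0.82) or EGF replicate 1 (0.78).

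At 1 h no member differed between the ligands by the test in BT474 (0.139% of all genes called, 2 members with an unadjusted p below 0.05) or in BT474R (0.0494%, 0 members). At 24 h in BT474 none was called either (0.768%, 1 member with an unadjusted p below 0.05), and KRT18, at 0.07 ± 0.04 (SE), was called only without EGF replicate 2 (0.13). DESeq2 called 0 members in these 3 comparisons. In BT474R at 12 h, KRT16 alone was called (1.42% of all genes), with HRG against EGF at -1.27 ± 0.16 (SE) (edgeR adjusted p = 5.24e-05). KRT17 had -1.32 ± 0.36 (SE) (edgeR adjusted p = 0.0841). At 24 h, 3 members were called beside 5.18%. KRT17 differed by -2.20 ± 0.44 (SE) (edgeR adjusted p = 0.00272) and KRT16 by -1.75 ± 0.19 (SE) (edgeR adjusted p = 1.7e-06), and without each library in turn KRT17 stayed between -2.93 and -1.73 and KRT16 between -2.15 and -1.46, all called. KRT18 differed by -0.43 ± 0.12 (SE) (edgeR adjusted p = 0.0374), with the call lost without HRG replicate 1 (-0.18) or either EGF library (-0.48 and -0.39), and in DESeq2's Wald test, and it was -0.78 without HRG replicate 2. Without HRG replicate 2, KRT8 (-0.47) and KRT19 (-0.28) were called too. With only the libraries of the 2 groups compared, no gene at all was called between HRG and EGF at 24 h in BT474R.

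The lines were set against each other at T0. The luminal keratins split, KRT7 and KRT19 being higher and KRT8 and KRT18 lower in BT474R, and no basal or stress keratin was called. These 4 of 10 members stand beside 46.9% of all genes, so a call was about as common among all genes. KRT7 was higher by 0.81 ± 0.06 (SE) (edgeR adjusted p = 5.31e-14) and KRT19 by 0.29 ± 0.06 (SE) (edgeR adjusted p = 0.000154). KRT8 changed by -0.53 ± 0.09 (SE) (edgeR adjusted p = 6.11e-06) and its partner KRT18 by -0.38 ± 0.10 (SE) (edgeR adjusted p = 0.00104). KRT5 had 1.45 ± 0.87 (SE), KRT16 -0.55 ± 0.33 (SE) and KRT17 -1.20 ± 0.73 (SE), with edgeR adjusted p of 0.181, 0.183 and 0.189.

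Whether a ligand acted differently in the lines was tested as the difference of the 2 log2 fold changes, BT474R minus BT474. The response of KRT16 to EGF was larger in BT474R at 12 h and 24 h, and the responses of KRT7, KRT8 and KRT19 to HRG at 12 h and of KRT7 to both ligands at 24 h were smaller in BT474R. At 1 h, 0 members were called for either ligand by edgeR or DESeq2 and 0 had an unadjusted p below 0.05, beside 0.138% (EGF) and 0.544% (HRG) of all genes. For EGF, 1 member was called at 12 h beside 1.96% and 2 at 24 h beside 4.01%. For HRG, 3 were called at 12 h beside 4.07% and 1 at 24 h beside 3.33%. The EGF effect on KRT16 differed by 1.41 ± 0.39 (SE) at 12 h (edgeR adjusted p = 0.0451) and by 1.57 ± 0.46 (SE) at 24 h (edgeR adjusted p = 0.0426). Both calls were lost when the pseudogene counts were added to KRT16, the first was lost without any 1 of its 8 libraries (1.24 to 1.67), and the second without BT474 vehicle replicate 1 (1.56) or 2 (1.57), BT474 EGF replicate 1 (1.32), BT474R vehicle replicate 1 (1.37) or BT474R EGF replicate 2 (1.39).

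For HRG at 12 h, KRT7 differed by -0.57 ± 0.09 (SE) (edgeR adjusted p = 3.22e-05), which was called in every alternative run and without each of the 8 libraries. KRT19 differed by -0.37 ± 0.09 (SE) (edgeR adjusted p = 0.0101), with the call lost without each BT474 library of that time (vehicle or HRG, -0.37 to -0.34), BT474R vehicle replicate 2 (-0.29) or BT474R HRG replicate 1 (-0.33). KRT8 differed by -0.44 ± 0.13 (SE) (edgeR adjusted p = 0.042), a call that held only without BT474R vehicle replicate 1 among the 8 libraries (-0.51 to -0.35) and was lost with DESeq2's size factors, DESeq2's Wald test and filterByExpr. At 24 h the HRG effect on KRT7 differed by -0.43 ± 0.09 (SE) (edgeR adjusted p = 0.00171), was -0.27 without BT474R HRG replicate 1 and lost its call without BT474 HRG replicate 2 (-0.33). The EGF effect on KRT7 at 24 h differed by -0.31 ± 0.09 (SE) (edgeR adjusted p = 0.032) and was called only without BT474R vehicle replicate 1 or EGF replicate 2 among the 8 libraries (-0.40 to -0.20), and not with DESeq2's size factors. Without BT474R HRG replicate 2, the HRG effect at 24 h also differed for KRT8 (-0.35), KRT18 (-0.55) and KRT19 (-0.39), without BT474R vehicle replicate 1 for KRT19 (-0.34), and without BT474R vehicle replicate 2 the EGF effect for KRT18 (0.48).

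The ligand effects of 24 h were compared with those of 12 h within each line. In BT474 the HRG effect on all 4 luminal keratins was smaller at 24 h than at 12 h, and for EGF and in BT474R 0 members were called. The 4 calls stand beside 2.5% of all genes. KRT8 differed by -0.45 ± 0.04 (SE) (edgeR adjusted p = 3.63e-09), KRT19 by -0.29 ± 0.04 (SE) (edgeR adjusted p = 1.66e-05), KRT7 by -0.29 ± 0.05 (SE) (edgeR adjusted p = 0.000158) and KRT18 by -0.27 ± 0.05 (SE) (edgeR adjusted p = 0.00065). All 4 stayed called without each of the 8 libraries, and none was called in 1 fit of both lines. For EGF in BT474, 0.517% of all genes were called and 3 members had an unadjusted p below 0.05, and KRT8 was called without EGF 24 h replicate 2 (-0.20). In BT474R, 0.185% of all genes were called for EGF, with 2 members at an unadjusted p below 0.05, and 0.0288% for HRG, with 0. DESeq2 called 0 members in these 3 comparisons.

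The balance of the 6 basal and stress members against the 4 luminal members was followed as the ratio of their summed CPM. It describes these 10 genes alone and leaves out KRT15, a type I keratin of basal cells that is no member. At T0 KRT15 stood at 68.4 CPM in BT474 and 82.5 CPM in BT474R, above the sums of the 6 members (2.19 and 1.84 CPM). Of the summed CPM of the 10 members, the 4 luminal keratins took 99.8% to 99.98% in a BT474 library and 99.7% to 99.97% in a BT474R library. Of all counts they took 0.406% to 0.735% and 0.412% to 0.682%. Per 10000 CPM of luminal keratins, BT474 had 3.56 ± 0.72 CPM of basal and stress keratins with vehicle at 12 h (SD, n = 2), 9.96 ± 0.416 with EGF and 18.9 ± 1.83 with HRG. BT474R had 5.09 ± 1.08 with vehicle at 12 h, 30.9 ± 1.54 with EGF and 14.6 ± 0.264 with HRG. At 24 h BT474 libraries stood at 1.98 and 2.64 with vehicle, 6.17 and 8.31 with EGF and 7.9 and 6.38 with HRG, and BT474R libraries at 3.88 and 5.09, 25 and 29.7 and 8.11 and 11.2. The ratio was higher with ligand than with vehicle in both libraries in 11 of the 12 comparisons, by 0.43 to 2.62 on the log2 scale over the 12, and overlapped only for HRG at 1 h in BT474R. The ratio carries no p, as the members were chosen with results known.

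**Figure D5:**
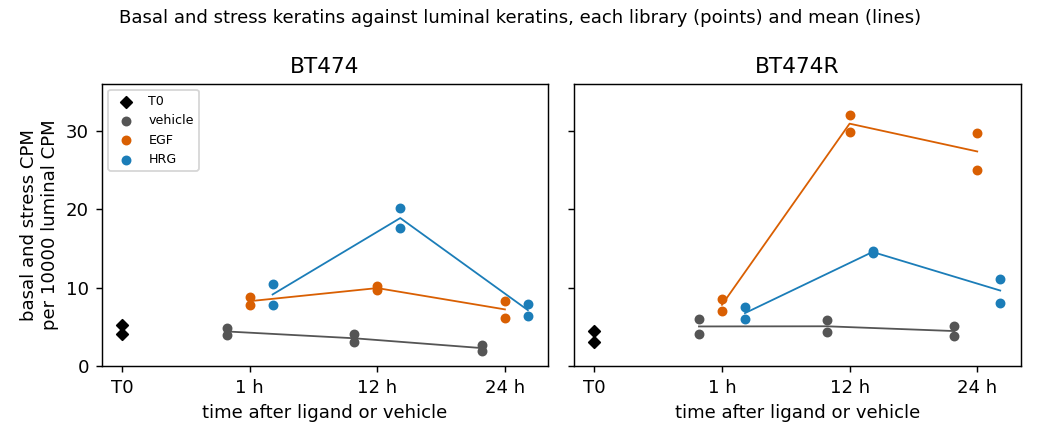
Summed CPM of the 6 basal and stress keratins per 10000 CPM of the 4 luminal keratins in every library (points) and group mean (lines) against time, by treatment, in BT474 (left) and BT474R (right). The highest means are 18.9 with HRG at 12 h in BT474 and 30.9 with EGF at 12 h in BT474R.

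Genes that work with keratins were counted by list. Of 26 other keratins, 19 were tested in BT474 and 17 in BT474R. With HRG at 12 h in BT474, 5 of 19 rose and none fell, beside 25.8% of all genes called in either direction, and with EGF 2 of 19 rose, beside 16%. In BT474R at that time 3 of 17 rose with EGF, beside 12%, and 2 with HRG, beside 4.12%. In BT474 the share was near that of all genes with HRG and below it with EGF, where the shares of all genes count both directions. Of the 25146 genes tested in BT474, 3332 rose with HRG at 12 h and 2273 with EGF. KRT80, a type II keratin, rose from 41.6 to 129 CPM with HRG at 12 h in BT474 (1.60 ± 0.05 (SE), edgeR adjusted p = 4.83e-24) and from 70.8 to 122 CPM with EGF at 12 h in BT474R (0.78 ± 0.06 (SE), edgeR adjusted p = 7.96e-09). KRT15, a type I keratin of basal cells, rose to 243 CPM with EGF at 12 h in BT474R (log2 fold change 1.26 ± 0.12 (SE)) and from 54.7 to 123 CPM with HRG at 24 h in BT474 (1.14 ± 0.06 (SE)).

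Of the 20 desmosome and hemidesmosome genes that anchor keratin filaments, 10 of 19 rose and 1 fell with HRG at 12 h in BT474 (25.8% of all genes called), and 6 rose and 1 fell with EGF (16%). In BT474R 8 of 18 rose with EGF (12%) and 4 with HRG (4.12%) at that time. ITGB4, the beta subunit of the hemidesmosome integrin, had 0.95 ± 0.05 (SE) with HRG at 12 h in BT474 (edgeR adjusted p = 1.38e-18) and 1.53 ± 0.06 (SE) with EGF at 12 h in BT474R (edgeR adjusted p = 3.92e-13). EPPK1, epiplakin, which binds keratin filaments, was the 1 gene of this list called at 1 h in BT474, with 0.77 ± 0.09 (SE) (EGF) and 1.02 ± 0.10 (SE) (HRG). Of 21 genes of squamous differentiation, 4 of 16 tested rose and 1 fell with HRG at 12 h in BT474, beside 25.8% of all genes, and 2 of 14 rose with EGF at 12 h in BT474R, beside 12%, shares near those of all genes. SFN, an epithelial 14-3-3 protein, rose by 0.46 ± 0.07 (SE) with EGF at 12 h in BT474 and by 0.61 ± 0.11 (SE) in BT474R. Among 13 other intermediate filament genes, LMNA, which encodes the nuclear lamins A and C, rose by 0.41 ± 0.03 (SE) with HRG at 12 h in BT474 and by 0.45 ± 0.05 (SE) with EGF at 12 h in BT474R. VIM, the filament protein of mesenchymal cells, rose by 0.28 ± 0.07 (SE) on the log2 scale with HRG at 1 h in BT474. At 24 h with HRG in that line it fell by 0.67 ± 0.07 (SE). In BT474R it rose by 0.71 ± 0.10 (SE) with EGF at 12 h. The EGF effect on VIM at 12 h, BT474R minus BT474, was 0.66 ± 0.13 (SE) (edgeR adjusted p = 0.00171).

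Of 12 transcription factors known to regulate keratin genes, 4 rose and 2 fell with HRG at 12 h in BT474, beside 25.8% of all genes, and 2 rose and 3 fell with EGF at 12 h in BT474R, beside 12%. TP63, the factor of basal epithelial cells, rose with HRG at 12 h in BT474 from 3.87 to 8.88 CPM (1.15 ± 0.15 (SE), edgeR adjusted p = 1.05e-07) and with EGF at 12 h in BT474R from 0.83 to 1.91 CPM (1.22 ± 0.27 (SE), edgeR adjusted p = 0.00431). At T0 TP63 stood at 5.25 CPM in BT474 and 1.29 CPM in BT474R (-2.06 ± 0.24 (SE), edgeR adjusted p = 2.05e-09). GATA3, a factor of luminal cells, stood at 472 CPM in BT474 and 39.7 CPM in BT474R at T0, so both factors were lower in BT474R. GATA3 changed by -1.78 ± 0.14 (SE) with EGF at 12 h in BT474R (edgeR adjusted p = 1.31e-08) and by -0.71 ± 0.04 (SE) with HRG at 24 h in BT474 (edgeR adjusted p = 8.39e-18). KRT16 and KRT17 were called in these 3 ligand comparisons too, and the part of TP63 and GATA3 in those changes was not tested.

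The genes whose pattern was most like that of each member were found among 13284 genes with a mean of at least 1 CPM, by the correlation of log2 group means over the 20 groups, centred within each line. The groups share starvation and time, so these are descriptions. KRT8 was most like its pseudogene KRT8P41 (r = 0.959), and then ARAP2 (0.958) and PPL (0.948), the desmosomal periplakin. The counts of KRT8P41 came to 0.342% of those of KRT8, and whether they include reads of KRT8 was not tested. KRT18 was most like NMD3 (0.980), MACC1 (0.958) and MICAL2 (0.955), KRT7 like CTTN (0.973), S100A16 (0.956) and PITRM1 (0.952), and KRT19 like KCTD12 (0.959), S100A14 (0.959) and IDS (0.947). KRT16 was most like LAMB3 (0.960), which encodes a laminin chain of basement membranes, and L1CAM (0.952) was also among the genes most like it. KRT17 was most like KRT18 (0.935), TNFRSF12A (0.928) and NMD3 (0.916). Among the members themselves, KRT8 and KRT18 had r = 0.929, KRT16 and KRT18 0.912, KRT7 and KRT19 0.869, and KRT7 and KRT16, the pair least alike, 0.599.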

How the data were processed

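RNA-seq libraries (Kapa mRNA HyperPrep, paired-end reads) of the 40 samples were quantified by the authors, who deposited 1 table of raw read counts per gene. They trimmed reads with TrimGalore and counted with featureCounts on GRCh38.p13, while which annotation release and strand setting they used, and how they treated reads that map to several places, is not given in the sources used here. No column of the table was left unused (0). Groups came from the labels, 20 groups of 2 libraries.

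Counts were fitted in R 4.3.3 with edgeR 4.0.16 (quasi-likelihood F test, TMM, genes counted at 1 or more in no fewer than 50% of the libraries) over the 20 libraries of a line, or over all 40 for comparisons between lines. P-values were adjusted over all genes tested by the Benjamini-Hochberg method, with a threshold of 0.05. Intervals of ratios are 95% and cover counting error only. The members and gene lists were chosen with earlier results of these data known, so no test was run over a list. All 10 members are named, and from the other lists called genes with a mean of at least 1 CPM and the 2 largest changes per list and ligand comparison could be named. The likeness search compared group means as described in the text. Alternatives were DESeq2 1.42.0 (size factors or its Wald test), filterByExpr, no filter, counts of pseudogenes and KRT6C added to the members, the replicate number as a block, 1 fit of both lines, the libraries of the 2 groups compared alone, and leaving out each library, for which the dispersion trend was held at that of all libraries. The scripts were tested on simulated counts. Some markers, genes of the likeness search and sequences are not reported here.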

Additional observations from a re-analysis of the deposited data

Results flagged for a closer look

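The ligand effects that differed between the lines by the test of the difference (BT474R minus BT474, log2 scale, edgeR over 40 libraries) were 7. For EGF these were KRT16 at 12 h (1.41 ± 0.39, edgeR adjusted p = 0.0451), KRT16 at 24 h (1.57 ± 0.46, edgeR adjusted p = 0.0426) and KRT7 at 24 h (-0.31 ± 0.09, edgeR adjusted p = 0.0320). For HRG these were KRT7 at 12 h (-0.57 ± 0.09, edgeR adjusted p = 3.22e-05), KRT19 at 12 h (-0.37 ± 0.09, edgeR adjusted p = 0.0101), KRT8 at 12 h (-0.44 ± 0.13, edgeR adjusted p = 0.0420) and KRT7 at 24 h (-0.43 ± 0.09, edgeR adjusted p = 0.00171). Apart from KRT7 with HRG at 12 h, none of these kept its call throughout when each library was left out in turn, as given above.

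The HRG effect in BT474 differed between 24 h and 12 h for the 4 luminal keratins, by -0.29 ± 0.05 for KRT7, -0.45 ± 0.04 for KRT8, -0.27 ± 0.05 for KRT18 and -0.29 ± 0.04 for KRT19 (24 h minus 12 h, log2 scale, edgeR adjusted p of 0.000158, 3.63e-09, 0.000650 and 1.66e-05). The lines stood at different keratin levels already at T0, and whether this bears on the differences in effect was not tested.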

How the results depend on the processing

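Of 310 results of single members, 78 were called, 43 of them under every alternative run and without each library, while 25 were lost in at least 1 alternative and 24 without at least 1 library. None reversed its direction. Calls lost and gained were 2 and 0 with DESeq2's size factors, 9 and 0 with its Wald test, 1 and 0 of 217 results with filterByExpr, 0 and 23 without a filter, 2 and 0 with pseudogene and KRT6C counts added, 10 and 8 of 240 in 1 fit of both lines, and 4 and 4 of 194 with only the libraries of the 2 groups compared. The 7 calls of a ligand effect on a member that differed between the lines (4 members over both ligands and all times) became 14 without a filter, and 3 to 12 when single libraries were left out, 12 without BT474R HRG 24 h replicate 2. The 4 members whose HRG effect differed between 24 h and 12 h became 0 in 1 fit of both lines. Counts over all genes moved by over 1.5 times in 13 of 31 comparisons without a filter (0.975 to 15 times the main count), in 11 of 24 in 1 fit of both lines (0.238 to 4.57), in 10 of 20 with only the 2 groups (0 to 2.95) and in 2 of 31 with DESeq2 (0.715 to 3.43). The cause of these moves was not tested.

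The labels do not say that a replicate number marks a shared culture or day. The correlation of the deviations of same-numbered ligand and vehicle libraries ran from -0.107 to 0.452 and was over 0.1 in 4 of 12 pairs of groups, among them HRG at 24 h in both lines, so the numbers were not taken to pair the samples throughout. In BT474R at 24 h, replicate 1 was below replicate 2 for the 4 luminal keratins with vehicle, EGF and HRG. With the replicate number as a block, 3 member results were gained and 0 lost, namely KRT8 with HRG at 12 h (0.35) and KRT18 with vehicle at 24 h against T0 (-0.34) in BT474R, and the EGF effect on KRT8 at 24 h against 12 h in BT474 (-0.16). Depth limits KRT6A, KRT6B, KRT14 and, in BT474, KRT5, whose counts lay at or near the limit of 3.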
